A study of Mus musculus with 14 samples.

Results

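Long intergenic noncoding RNAs (lincRNAs) and antisense transcripts were followed in hepatocytes, the main cell type of the liver, after loss of the splicing factor SRSF1. The transcripts were selected on their annotated class, lincRNA or antisense, and on their measured level, a mean over all 14 libraries of at least 1 TPM. TPM is a length-corrected abundance scaled so that the values of each library sum to 1000000. The symbols H19, Meg3, Gas5 and 1110038B12Rik and all small nucleolar RNA host genes (Snhg) were left out, which removed 27 transcripts. There were 370 transcripts of 288 genes, 234 lincRNAs and 136 antisense transcripts, out of 12864 transcripts of these classes and 137767 transcripts in all. The transcripts nearest the limit were D130020L05Rik-202, Gm47465-201 and Gm15879-202 on the inside, at 1.01 TPM, and Gm11789-201, 9130221H12Rik-202 and 1110002L01Rik-202 on the outside, at 0.995 TPM. Because the mean level chose them, levels are given as a description, and a transcript that passed only through the group where it is high had to differ between groups.

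All animals were of the C57BL/6 background, and the samples were purified hepatocytes, sequenced as stranded mRNA libraries. In the HKO model (hepatocyte knockout) the knockouts were srsf1f/f;albcre+/- and the controls albcre+/-, so knockouts and controls shared the albumin promoter-driven Cre and differed in the floxed Srsf1 alleles. There were 2 libraries of each at postnatal day 10 (P10) and 2 of each at the age labelled 1 month. In the acute model, srsf1f/f mice were injected at 8 weeks with an AAV8 vector in which the hepatocyte-specific TBG promoter drove iCre (acHKO, 3 libraries) or GFP (controls, 3 libraries) and were 10 weeks old at sampling. The acute groups therefore shared the floxed alleles, and only the knockouts received a recombinase. The labels do not say that replicates were separate animals, so p-values measure the spread between these libraries, which may be technical.

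SRSF1 is a member of the SR protein family, which binds exonic enhancer sequences and recruits the splicing machinery. Most lincRNAs and antisense RNAs are transcribed by RNA polymerase II, capped, spliced and polyadenylated like messenger RNAs, but they carry no long conserved reading frame and many stay in the nucleus. Antisense RNAs arise from the strand opposite to a gene, and some act on that gene in cis, while others such as Neat1 build nuclear bodies or, like Xist, coat a chromosome. For most of the predicted genes described here (Gm and Rik symbols, 204 and 90 of the 370 transcripts) no function is known, and they are described by position and level.

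Promoters of 6 transcripts are shown because these transcripts were among those with the largest rise or fall of a comparison and had a RefSeq start within 50 bases of their annotated 5′ end. Each runs 5′ to 3′ on the transcript's strand from 250 bases before to 50 bases after the RefSeq start (GRCm38.p6). Of the 288 gene symbols, 150 had a RefSeq promoter. Capitals mark matches on either strand to TATAAA (the core promoter box), CCAAT (the NF-Y box), CACGTG (E-box), TGANTCA (AP-1), TGACNNNGC (core of the antioxidant response element), CAAAGTCCA (HNF4) and TTGCNNAA (C/EBP).
A330049N07Rik (chr10:73086656-73086955, minus): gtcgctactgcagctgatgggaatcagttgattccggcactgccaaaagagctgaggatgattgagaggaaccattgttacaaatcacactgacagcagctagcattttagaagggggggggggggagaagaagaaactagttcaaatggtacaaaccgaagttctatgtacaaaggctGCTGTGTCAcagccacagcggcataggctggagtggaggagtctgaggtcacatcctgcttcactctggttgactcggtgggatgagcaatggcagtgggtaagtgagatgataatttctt
1810058I24Rik (chr6:35252460-35252759, plus): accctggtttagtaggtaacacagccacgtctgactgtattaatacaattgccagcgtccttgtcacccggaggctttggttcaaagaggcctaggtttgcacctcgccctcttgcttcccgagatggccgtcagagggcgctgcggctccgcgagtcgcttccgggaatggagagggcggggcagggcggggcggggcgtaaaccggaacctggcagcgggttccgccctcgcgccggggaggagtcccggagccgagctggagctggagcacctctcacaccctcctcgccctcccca
Gm31583 (chr16:24090016-24090315, minus): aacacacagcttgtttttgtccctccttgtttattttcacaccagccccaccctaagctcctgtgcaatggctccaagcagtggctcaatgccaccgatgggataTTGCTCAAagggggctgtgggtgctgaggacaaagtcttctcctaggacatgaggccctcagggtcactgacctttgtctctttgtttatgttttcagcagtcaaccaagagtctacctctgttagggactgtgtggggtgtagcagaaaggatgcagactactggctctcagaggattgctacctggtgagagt
BC049987 (chr9:44672211-44672510, minus): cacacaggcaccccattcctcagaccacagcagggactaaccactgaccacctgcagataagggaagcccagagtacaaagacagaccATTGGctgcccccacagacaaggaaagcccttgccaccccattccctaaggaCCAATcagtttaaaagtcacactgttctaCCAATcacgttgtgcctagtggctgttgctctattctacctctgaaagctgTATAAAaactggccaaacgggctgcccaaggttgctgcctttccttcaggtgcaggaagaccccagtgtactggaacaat
Gm20319 (chr16:26755453-26755752, minus): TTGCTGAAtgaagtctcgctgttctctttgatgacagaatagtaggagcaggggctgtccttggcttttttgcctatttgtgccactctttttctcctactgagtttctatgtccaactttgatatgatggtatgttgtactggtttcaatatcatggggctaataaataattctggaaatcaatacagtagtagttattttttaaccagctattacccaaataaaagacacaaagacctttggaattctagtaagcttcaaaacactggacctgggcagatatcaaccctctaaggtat
C730036E19Rik (chr1:151137784-151138083, plus): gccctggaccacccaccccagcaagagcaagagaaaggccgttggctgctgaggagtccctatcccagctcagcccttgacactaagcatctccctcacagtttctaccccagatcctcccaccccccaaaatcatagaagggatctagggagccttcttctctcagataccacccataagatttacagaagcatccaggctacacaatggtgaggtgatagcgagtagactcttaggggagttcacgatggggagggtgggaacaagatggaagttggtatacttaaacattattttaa

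The BC049987 promoter held TATAAA 30 bases before the start, with 3 CCAAT matches upstream of it. TATAAA was found in 13.6% of all 32851 RefSeq promoters of the same length, and CCAAT in 37.4%. The 1810058I24Rik promoter had 25 CG dinucleotides, against a median of 7 over all promoters, and no match to the 7 motifs. The C/EBP letters (10.8% of promoters) were found in Gm31583 and at the far upstream end of Gm20319, and the antioxidant response core (12.4%) in A330049N07Rik. AP-1 (7.81%), E-box (7.15%) and HNF4 (0.48%) letters were in none of the 6 promoters printed here, and the C730036E19Rik promoter held no match. A match describes letters and is no evidence of binding.

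The long noncoding transcripts were mostly rare. The median of their means was 2.19 TPM, 161 were below 2 TPM, 45 reached 10 TPM and 2 reached 100 TPM. Their summed level lay between 1878 and 2794 TPM over the 14 libraries, and the 10 most abundant transcripts made up 37.0% of it. They were shorter than coding transcripts, with a median of 741 bases against 2297 for the coding transcripts tested, and 38 of the 366 found in the GENCODE annotation had 1 exon. In 149 of the 370 the mean was at least 1 TPM in each of the 6 groups, and in 45 it was below 0.1 TPM in at least 1 group.

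The most abundant was Gm42418-201 (GRCm38 chromosome 17, 39846958 to 39848788), at 391 TPM on average. It measured 357 and 452 TPM in the P10 controls and 520 and 609 in the P10 knockouts, 620 and 367 in the 1 month controls and 286 and 302 in the knockouts, and 326, 234 and 364 in the GFP libraries and 381, 328 and 325 in the acute knockouts. None of the 3 knockout comparisons called it (limma adjusted p 0.352, 0.293 and 0.5). Of its 31-base words, 96.3% were found on the opposite strand in CT010467.1, which the annotation classes as ribosomal RNA, so its level cannot be told apart from ribosomal RNA if the strand was not used in quantification. The sources used here do not give the strand setting. Next to it, Gm26917-202 had no such shared words among annotated transcripts. It measured 8.02, 3.96 and 7.11 TPM in the GFP libraries and 44.1, 24 and 33.1 TPM in the acute knockouts. Its log2 rise was 2.53 ± 0.29 (SE, limma adjusted p = 0.0017). Only annotated transcripts were searched, and the part of ribosomal RNA in its level was not tested.

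The second most abundant was Gm48275-201, a single exon of 287 bases on chromosome 10 (50425044 to 50425330). All of its 31-base words were also present in Gm42428, another listed transcript of 302 bases, so the split between them is uncertain. Its letters run for 95 codons without a stop, 99.3% of its length, although it is classed as noncoding. It measured 19.5 and 16.1 TPM in the P10 controls and 77.2 and 78.4 TPM in the P10 knockouts, where every knockout library was higher. At 1 month the order was reversed, with controls at 471 and 296 TPM and knockouts at 67.1 and 104 TPM. The acute groups overlapped, at 64.9 to 263 TPM in GFP and 52.0 to 230 TPM in acHKO. The rise at P10 was 1.87 ± 0.31 on the log2 scale (limma adjusted p = 0.00683, but 0.0673 without the second P10 control library), and the log2 fold change at 1 month was -2.11 ± 0.31 (adjusted p = 0.00659).

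Further down the list stood AW112010-201, an interferon-inducible RNA of immune cells, which measured 42.4, 38.9 and 61.6 TPM in GFP and 84.3, 69.5 and 75.9 TPM in the acute knockouts. The groups did not overlap and the rise of 0.99 ± 0.20 passed the test (limma adjusted p = 0.0297), but it was lost without the first or second GFP library or the first knockout library or the third, with adjusted p up to 0.115. Markers of Kupffer cells and macrophages, which express this RNA, summed to 2.98 to 7.66 TPM in GFP and 4.16 to 28 TPM in acHKO, and their part in the result was not tested. Gm20186-201, which starts 1816 bases from the gene of the RNA-processing factor Lsm8, fell in the acute knockouts from 30.8, 47.7 and 33.7 TPM to 10.9, 15.7 and 10.5 TPM (log2 fold change -1.23 ± 0.23, limma adjusted p = 0.00269). Of its 31-base words, 96.3% occur in Gm26809 on the opposite strand and 50.5% in Gm12840-201. The latter measured 19.2 to 27.3 TPM in GFP and 10.3 to 21.0 TPM in acHKO and was not called (limma adjusted p = 0.0737). Gm20400-201, antisense to Slco1a6 and also among the 10 most abundant, was not called in the acute model (-0.32, limma adjusted p = 0.103).

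Several facts of the whole series bear on these values. Library depth is unknown, since it cannot be recovered from TPM. Srsf1, summed over its transcripts, measured 43.6 and 46.4 TPM in the P10 controls and 30.0 and 23.4 TPM in the knockouts, 23.2 and 20 against 7.74 and 9.17 TPM at 1 month, and 16.5, 29.7 and 32.3 against 3.69, 5.34 and 4.16 TPM in the acute model, so every knockout library was below its controls. Mitochondrially encoded transcripts summed to 117771 to 161429 TPM in the GFP libraries and to 260365 to 505685 TPM in the other groups, which raises all other levels in GFP in proportion. Over all 18682 transcripts tested, the median log2 fold change was 0.21 at P10 and -0.03 at 1 month. It was -0.29 in the acute model and -0.30 between the control ages. Every log2 fold change of a transcript, above and below, is given relative to that median. Changes of gene sums are relative to the median of all genes tested. The tests and their adjusted p-values used the unshifted values, so they do not test the printed changes. All 8 hepatocyte markers were at 1 TPM or more in every library. Their sum was 106148 to 111276 TPM in the P10 controls and 58041 to 73734 TPM in the P10 knockouts, 61734 to 78922 against 49583 to 67154 TPM at 1 month, and 40880 to 52952 against 31877 to 49885 TPM in the acute model. In bulk samples fewer cells of a type and less RNA per cell cannot be told apart. The second P10 knockout library stood apart from the rest: Xist-201, the RNA that silences an X chromosome, measured 46.4 TPM there and at most 0.00587 TPM in every other library, and the Y-linked Ddx3y 0.0436 TPM there and at least 6.04 TPM in every other library.

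At P10, 63 of the 370 transcripts passed the test (limma on log2(TPM + 1), adjusted p under 0.05), 42 higher and 21 lower in the knockouts. That is 17% of them, against 5.17% of all transcripts tested, where 4.25% were higher and 0.921% lower. At 1 month 35 passed, 24 higher and 11 lower (9.46%, against 3.21% of all, where 1.93% were higher and 1.28% lower). In the acute model 160 passed, 59 higher and 101 lower (43.2%, against 38.9% of all, where 8.49% were higher and 30.4% lower). Among the 149 transcripts at 1 TPM or more in every group mean the counts were 16, 9 and 63, or 10.7%, 6.04% and 42.3%. The shares of the 370 at P10 and 1 month thus lay above the background. No background was made of all transcripts at 1 TPM or more in every group mean. The shares of the 149 therefore have no like background here. The acute share of both directions together lay near the background, but its calls leaned less to falls than those of all transcripts. Markers of other cells moved with the 1 month comparison. Those of Kupffer cells and macrophages summed to 8.69 to 10.8 TPM in the 1 month controls and 27.6 to 82.4 TPM in the knockouts, and those of stellate cells and fibroblasts to 5.11 to 5.52 and 11.5 to 29.9 TPM. At P10 the macrophage markers summed to 244 to 261 TPM in the controls and 281 to 447 TPM in the knockouts, and the hepatocyte markers were lower in the knockouts, as given above. The part of these cells in the counts was not tested.

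The directions and counts depended on scaling and on single libraries. With median-ratio rescaling the P10 split was 27 higher and 51 lower, and the acute split 101 higher and 69 lower. Without mitochondrially encoded transcripts the splits were 49 and 41 at P10, 54 and 10 at 1 month, and 88 and 53 in the acute model. For these rescalings, here and below, the shares over all transcripts were not taken. The shifts are therefore not read as particular to the long noncoding transcripts. Without the first or second P10 control library, or the second knockout library, far fewer P10 calls were kept, and nearly all falls were lost. Each such fit left a lone library in a group, and the share over all transcripts was not taken there. Of the 370 transcripts, 169 were called in none of the 3 knockout comparisons, 152 in 1, 41 in 2 and 8 in all 3. The same counts were not made over all 18682 transcripts, so no excess of shared calls is read from them.

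**Figure D1:**
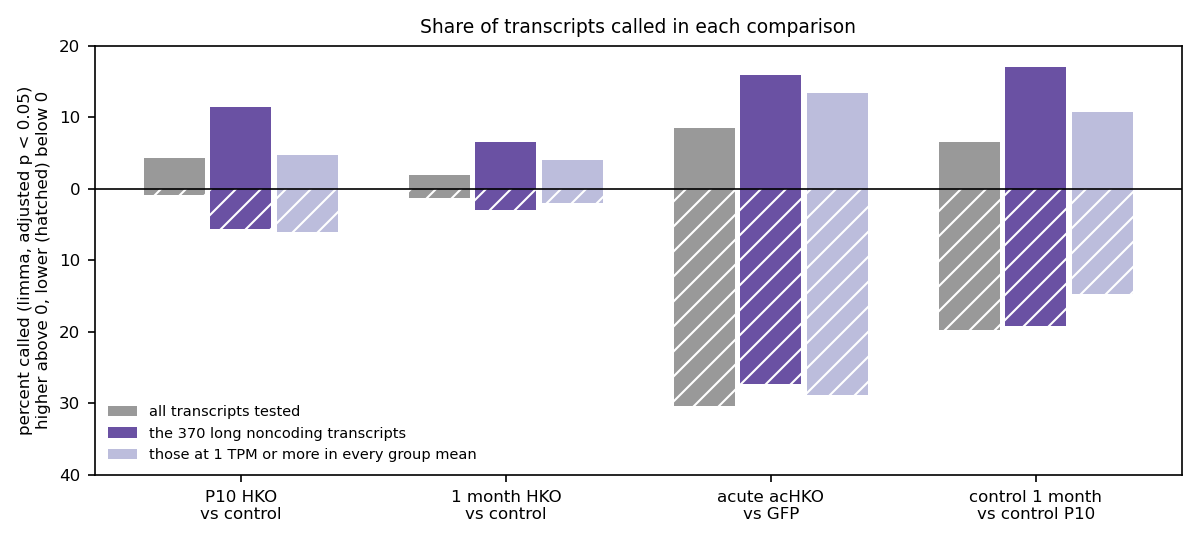
Percent of transcripts called higher (above 0) or lower (hatched, below 0) in 4 comparisons, for all 18682 transcripts tested (grey), the 370 long noncoding transcripts (purple) and the 149 of them at 1 TPM or more in every group mean (light purple). At P10 the purple bars exceed the grey ones in both directions (17% against 5.17% with both directions together). Nearly all of the P10 falls were lost without some single libraries. In the acute model both directions together came to 43.2% against 38.9%. There, 59 of the 370 were higher and 101 lower, against 8.49% and 30.4% of all transcripts.

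A set of 7 lincRNAs was near absent from the albumin-Cre controls and present wherever the floxed Srsf1 alleles were, including the GFP controls that keep SRSF1. The pattern was chosen after the values were seen, as a level of at least 0.3 TPM in each of the 10 libraries with floxed alleles and at least 3 times the highest of the 4 albcre+/- controls. It was met by 7 of the 370 transcripts (1.89%), 25 of all 18682 tested (0.134%), 7 of 13518 coding transcripts (0.0518%) and 6 of 120 processed pseudogene transcripts (5.0%), so it was not particular to long noncoding transcripts. The 4 named by size led the list of rises at P10 and 1 month. At P10 the next was Gm42031-201, which is not among the 7 and was higher by 2.23 on the log2 scale.

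AA465934-203 (chromosome 11, 83291699 to 83294631, plus strand, 3 exons) lies 4.753 Mb from Srsf1. It measured 0 and 0.0768 TPM in the P10 controls against 17.1 and 20.3 TPM in the knockouts, and 0.0924 and 0 TPM in the 1 month controls against 6.47 and 8.41 TPM in the knockouts. In the acute model it was at 10.4, 12.2 and 13 TPM in GFP and at 6.46, 7.82 and 4.86 TPM in acHKO. It was thus the only transcript called in all 3 knockout comparisons with mixed directions, higher by 4.04 ± 0.21 at P10 and 3.04 ± 0.21 at 1 month (log2, SE; limma adjusted p = 1.08e-05 and 0.000159) and lower in the acute knockouts (-0.52 ± 0.20, adjusted p = 0.0152, up to 0.0552 without the second GFP or the third knockout library).

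Gm48099-201 (chromosome 14, 19271274 to 19282822) was at 0 to 0.03 TPM in the 4 albcre+/- controls, at 17.3 and 12.2 TPM in the P10 knockouts and at 26.0 and 19.9 TPM in those at 1 month. In the acute model it reached 18.9, 57.9 and 65.1 TPM in GFP and 43.1, 44.9 and 40.8 TPM in acHKO, groups that overlapped (adjusted p = 0.945). A330049N07Rik-203 (chromosome 10, 72973303 to 73086705), near the protocadherin gene Pcdh15, followed the same order, from at most 0.00532 TPM in the 4 controls to 9.90 to 20.2 TPM in the HKO libraries and 13.7 to 44.5 TPM in the acute ones. AC153140.1-201, which lies within the gene Asap2 on chromosome 12 and has 49.7% of its 31-base words in other genes, went from at most 0.105 TPM in those controls to 5.51 to 12.3 TPM in the HKO libraries and 2.33 to 10.6 TPM in the acute ones. Gm20752-201, Gm33104-202 and Gm28076-201 showed the pattern at lower levels, at most 0.159 TPM in the 4 controls and 0.325 to 6.64 TPM in the other 10 libraries. The first GFP library was the lowest of the 3 GFP libraries for 6 of the 7, Gm28076-201 being the exception.

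For these transcripts, knockout and floxed line cannot be told apart at P10 and 1 month, since no HKO control carried the floxed alleles. The acute comparison, in which both groups carried them, called 1 of the 7, AA465934-203, and that one lower. Without the 7, the counts of called transcripts came to 57 at P10, to 28 at 1 month and to 159 in the acute model.

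**Figure D2:**
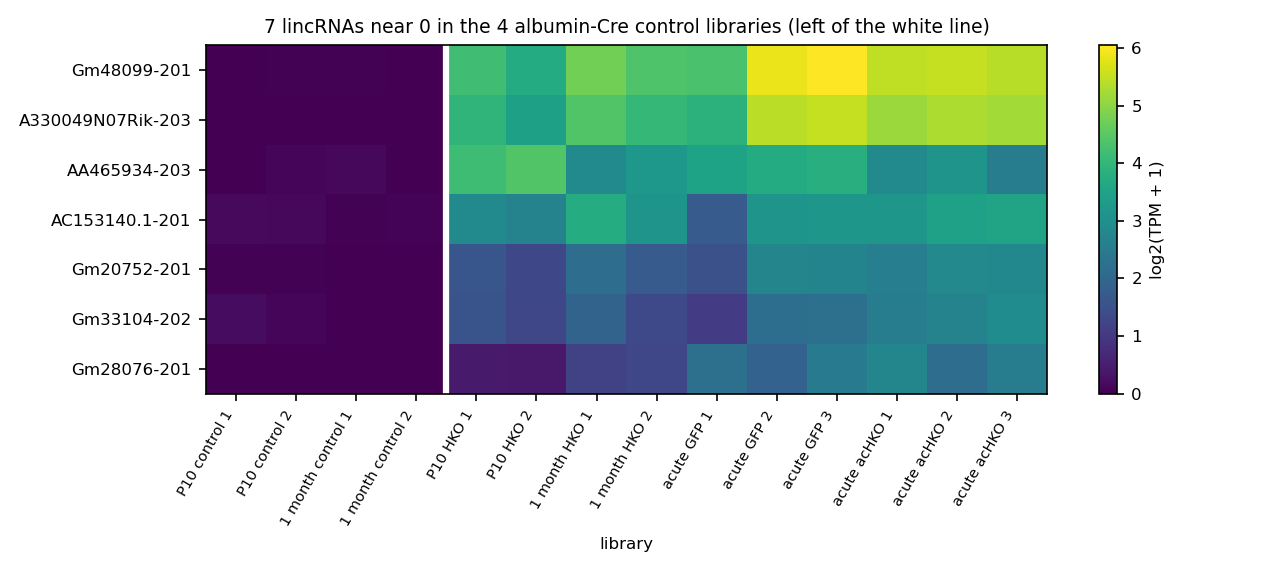
log2(TPM + 1) of 7 lincRNAs (rows) in each of the 14 libraries (columns); the white line separates the 4 albcre+/- control libraries from the 10 libraries with floxed Srsf1. All 7 are dark in the 4 controls, at most 0.159 TPM, and lighter in every other library.

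Among the largest acute rises, BC049987-201, Gm44507-201 and Gm13021-201 were also called higher at 1 month. BC049987-201, a lincRNA on chromosome 9 (44670453 to 44672238, minus strand, 2 exons), measured 1.33, 2.30 and 3.12 TPM in GFP and 30.7, 32.1 and 21.0 TPM in the acute knockouts. At 1 month the 2 controls held 0.424 and 0.422 TPM of it and the 2 knockouts 7.02 and 9.02 TPM, and at P10 the values were 0.243 and 0.190 against 0.606 and 0.907 TPM. Every knockout library was above every control of its comparison, and the rise was called in the acute model (3.46 ± 0.26, limma adjusted p = 0.000442) and at 1 month (2.69 ± 0.19, adjusted p = 0.000217) but not at P10 (0.32 ± 0.19, adjusted p = 0.153). Its start lies 995 bases from that of Treh, on the opposite strand, which encodes the enzyme trehalase.

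Gm44507-201 (chromosome 7, 98388091 to 98415624) rose in the acute model from 0.822, 1.01 and 1.39 TPM to 16.9, 17.9 and 8.73 TPM (3.14 ± 0.28, limma adjusted p = 0.000721). At 1 month the controls held 0.107 and 0.114 TPM and the knockouts 1.41 and 3.59 TPM (1.62 ± 0.27, adjusted p = 0.0136), while the P10 libraries held at most 0.186 TPM. Gm13021-201 likewise rose in the acute model, from 1.30, 1.96 and 1.41 TPM to 13, 9.77 and 12.0 TPM (2.59 ± 0.19, adjusted p = 0.000442). At 1 month its rise of 1.26 ± 0.27 (adjusted p = 0.0419) was lost without either control or the second knockout library, with adjusted p up to 0.18. Both transcripts were higher in every knockout library of these comparisons than in the matched controls. In the acute model the choice of the largest rises, BC049987-201 among them, required groups without overlap.

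Gm19705 was the gene called in all 3 knockout comparisons through 3 of its transcripts. Gm19705-203 (chromosome 1, 136676473 to 136682727) measured 2.72 and 2.52 TPM in the P10 controls and 10.8 and 13.5 TPM in the knockouts. At 1 month the values were 0.246 and 0.271 against 2.68 and 2.65 TPM. In the acute model they were 0.125, 0.153 and 0.228 against 7.32, 3.25 and 5.98 TPM. The groups did not overlap at any age, and the rises were 1.65 ± 0.19, 1.58 ± 0.19 and 2.72 ± 0.25 (limma adjusted p = 0.000983, 0.00323 and 0.000844). Gm47789-201, Gm47939-201 and Gm31522-201, named here because they too were called higher in all 3, measured 0.0682 to 1.05 TPM in the P10 controls and 0.97 to 5.54 TPM in the P10 knockouts. Gm16573-202, antisense to the poly(ADP-ribose) polymerase gene Parp4, was the only transcript called lower in all 3. It measured 8.82 and 7.06 against 2.26 and 2.90 TPM at P10, 42.0 and 35.7 against 12.8 and 10.9 TPM at 1 month, and 23.4, 24.1 and 30.9 against 9.71, 22.6 and 8.93 TPM in the acute model. Its call held in every fit with a library left out at 1 month (adjusted p up to 0.0351), in none at P10 (up to 0.211) and in 1 of 6 in the acute model, the fit without the second knockout library (up to 0.138 in the others).

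Further transcripts rose in the acute model. 0610031O16Rik-204, which runs antisense through the alcohol dehydrogenase gene Adh7 on chromosome 3, was near 0 in all P10 libraries (at most 0.102 TPM) and at 6.75 and 5.13 TPM in the 1 month controls. It rose in the acute model from 5.98, 5.67 and 6.15 TPM to 40.9, 31.3 and 34.7 TPM (2.69 ± 0.16, limma adjusted p = 0.00028), while the 1 month knockouts, at 9.15 and 18.4 TPM, did not pass (adjusted p = 0.11). Other transcripts of that gene, 0610031O16Rik-202 and 0610031O16Rik-203, were called lower in the acute model (-0.88 and -1.40, limma adjusted p = 0.0036 and 0.0013). Gm43263-201 rose in the acute model from at most 0.213 TPM to 3.91, 3.45 and 6.36 TPM (2.54 ± 0.21, adjusted p = 0.000699). Gm42047-202, most of whose 31-base words (81.3%) occur in other genes, rose at 1 month from 10.8 and 6.02 to 40.5 and 85.0 TPM and in the acute model from 4.75, 1.98 and 14.6 to 23.1, 24.5 and 25.3 TPM. Its acute call was lost without the first GFP library or the third knockout library (adjusted p up to 0.0547).

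The falls of the acute model were led by Gm20319-201, an abundant transcript antisense to Il1rap, the co-receptor of interleukin-1. It measured 60.7, 56.3 and 84.4 TPM in GFP and 8.08, 16.2 and 10.6 TPM in the acute knockouts (-2.17 ± 0.27, limma adjusted p = 0.00096). The HKO libraries were also below their controls, at 24.5 and 12.8 against 48.2 and 42.7 TPM at P10 and 26.6 and 40.5 against 57.0 and 72.6 TPM at 1 month, without passing the test (adjusted p = 0.0616 and 0.219). Another transcript of the same gene, Gm20319-202, did not fall in the acute model (0.56, limma adjusted p = 0.226). Gm36738-201, next to the GTPase gene Rac2, fell from 7.67, 4.63 and 9.86 TPM to 0.449, 1.04 and 0.394 TPM (-2.04 ± 0.28, adjusted p = 0.00127). B630019A10Rik-204, 17252 bases from the adiponectin gene Adipoq, fell from 5.25, 5.42 and 6.03 TPM to 0.344, 1.04 and 0.233 TPM (-1.83 ± 0.22, adjusted p = 0.000861). In the 3 transcripts that fell, no acute knockout library reached the lowest GFP library, which the choice of the largest falls required.

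Gm48633-201, a lincRNA 27587 bases from the apolipoprotein B gene Apob, fell in the acute model from 22.1, 23.6 and 30.1 TPM to 4.16, 8.52 and 5.0 TPM (-1.68 ± 0.25, limma adjusted p = 0.00159). 5033403H07Rik-203 fell from 14.4, 13.3 and 16.6 TPM to 2.74, 4.96 and 2.31 TPM (-1.61 ± 0.24, adjusted p = 0.00152). 0610005C13Rik, which runs antisense to Bcat2, a mitochondrial enzyme of branched-chain amino acid breakdown, had 2 named transcripts that fell. 0610005C13Rik-205 went from 63.7, 46.1 and 85.5 TPM to 34.5, 32.1 and 28.3 TPM, and 0610005C13Rik-211 from 7.67, 5.81 and 9.90 TPM to 1.01, 0.614 and 1.56 TPM. The shorter one therefore fell further (-1.80 ± 0.25 against -0.69 ± 0.23, adjusted p = 0.00125 and 0.014), a difference that was not tested.

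**Figure D3:**
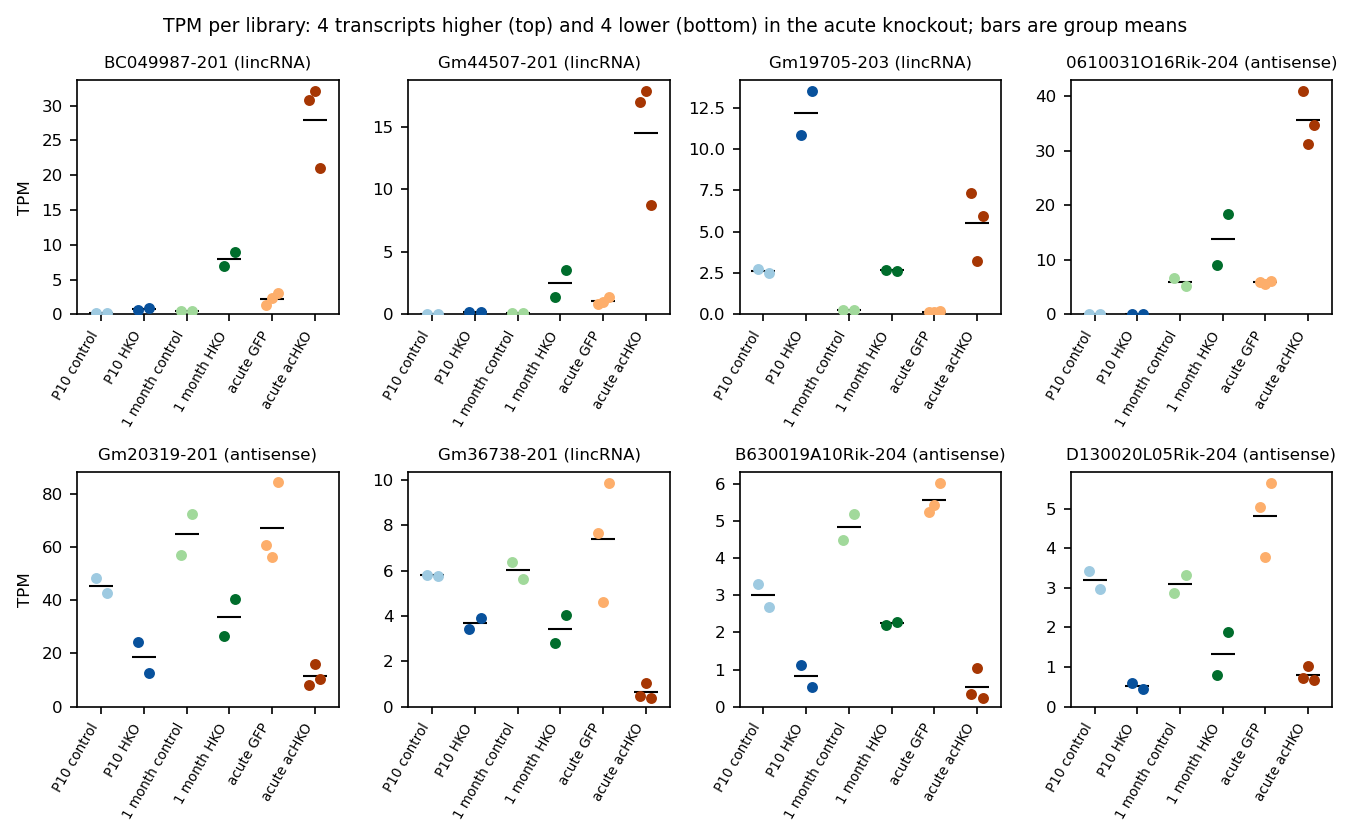
TPM of 8 long noncoding transcripts in each library (points) with group means (bars), 4 higher in the acute knockouts in the top row and 4 lower in the bottom row. BC049987-201 lies at 1.33 to 3.12 TPM in GFP and at 21.0 to 32.1 TPM in acHKO, and Gm20319-201 at 56.3 to 84.4 and at 8.08 to 16.2 TPM.

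At P10 the falls were led by 1810058I24Rik-202, with 39.5 and 37.6 TPM in control and 2.92 and 1.88 TPM in knockout libraries (-3.76 ± 0.57, limma adjusted p = 0.00911). 1810058I24Rik-201, which starts just upstream on chromosome 6, measured 75.2 and 76.1 TPM against 58.1 and 52.7 TPM and was not called (limma adjusted p = 0.396). The difference between the isoforms was not tested. BC024386-202 fell at P10 from 19.3 and 18.3 to 6.27 and 4.21 TPM and in the acute model from 18.6, 15.9 and 21.0 to 6.66, 6.62 and 6.49 TPM. D130020L05Rik-204, antisense to the phosphatase subunit gene Ppp4r3a, fell at P10 from 3.42 and 2.96 to 0.599 and 0.448 TPM and in the acute model from 5.05, 3.77 and 5.65 to 0.716, 1.02 and 0.667 TPM. The acute calls of both held in every fit with a library left out, and the P10 calls were lost without either control or the second knockout library (adjusted p up to 0.0926 and 0.09). Gm44787-202 and AC154912.1-201, the latter antisense to the glucocorticoid-induced chaperone gene Fkbp5, fell at P10 by 1.79 and 1.59 on the log2 scale, and no fit with a P10 library left out kept either call (adjusted p up to 0.143 and 0.19).

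At 1 month Gm31583-201, 96231 bases from Bcl6, a transcriptional repressor, fell from 16.3 and 21.3 TPM to 2.14 and 2.14 TPM (-2.61 ± 0.21, limma adjusted p = 0.000271). It also fell in the acute model, from 15.5, 12.7 and 12.7 TPM to 1.54, 7.04 and 1.94 TPM (-1.60 ± 0.40, adjusted p = 0.0094), where the second knockout library lay between the others and the controls. Gm27252-201, within Klf13, fell at 1 month from 7.23 and 6.53 to 1.40 and 1.31 TPM (-1.71 ± 0.18, adjusted p = 0.00116). Gm38832-201 fell from 3.00 and 7.85 to 0.388 and 0.171 TPM, a call lost without either knockout library (adjusted p up to 0.0749). These 3 transcripts were also lower in the P10 controls than in the 1 month controls, by 1.93 to 3.96 on the log2 scale.

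Between the control ages, 134 of the 370 transcripts passed the test, 63 higher and 71 lower at 1 month (36.2%, against 26.2% of all transcripts tested, where 6.54% were higher and 19.7% lower). Among the 149 present in every group the count was 38 (25.5%). With median-ratio rescaling the split was 102 higher and 54 lower, and without the first or the second P10 control the count was 78 or 76. The P10 libraries also differed in other cell types. Markers of Kupffer cells and macrophages summed to 244 to 261 TPM in the P10 controls and 8.69 to 10.8 TPM in the 1 month controls, markers of erythroid cells to 228 to 383 and 12.3 to 14.6 TPM, and those of stellate cells and fibroblasts to 114 to 127 and 5.11 to 5.52 TPM. The part of these cells in the age differences was not tested.

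Of the 6 largest rises with age, 5 started below 1 TPM in both P10 controls. The exception was Gm48275-201, given above, at 19.5 and 16.1 TPM in the P10 controls and 471 and 296 TPM in the 1 month controls (4.62 on the log2 scale, kept in all 4 fits with a library left out). Gm48199-201 was at 0 in both P10 controls and at 27.5 and 60.8 TPM in the 1 month controls, and a fold against 0 is not given. C730036E19Rik-201 went from 0.122 and 0.150 TPM to 20.6 and 4.68 TPM (3.58 ± 0.48, limma adjusted p = 0.00111), and reached 39.6 to 76.4 TPM in the acute knockouts against 12.5 to 31.1 TPM in GFP. That acute rise of 1.64 ± 0.36 (adjusted p = 0.0222) was lost without the first or second knockout library (adjusted p up to 0.0569). Gm31583-201 went from 0.712 and 0.420 TPM to 16.3 and 21.3 TPM (3.96 ± 0.21, adjusted p = 4.48e-06), and Ctcflos-202, antisense to the testis CTCF relative Ctcfl, from 0.0418 and 0.0461 to 3.57 and 6.87 TPM. The GFP controls held 4.25 to 14.5 TPM of Gm48199-201, while no P10 library exceeded 0.0637 TPM.

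The falls with age were led by Rian, a maternally expressed RNA of the imprinted Dlk1-Dio3 domain on chromosome 12. Rian-213 measured 14.8 and 15.8 TPM in the P10 controls and 0.0105 and 0 TPM in the 1 month controls, and at most 0.126 TPM in any acute library. All 5 Rian transcripts fell, by 1.17 to 3.72 on the log2 scale. At P10 the same 5 were higher in the knockouts, with Rian-213 at 45.6 and 50.7 TPM and Rian-202 at 42.4 and 51.4 TPM against 12.5 and 14.2 TPM. The P10 rise of Rian-202 (1.53 ± 0.21, limma adjusted p = 0.00234) was kept in every fit with a library left out. That of Rian-213 was lost without the first control, that of Rian-203 without the second, and those of Rian-205 and Rian-208 without either control or the second knockout library (adjusted p up to 0.117). Beside this rise, erythroid markers summed to 483 to 2899 TPM and cholangiocyte markers to 28.1 to 32.3 TPM in the P10 knockouts, against 228 to 383 and 2.91 to 3.29 TPM in the P10 controls. Their part in the result was not tested.

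Gm2682-201 and Gm15611-201 also fell with age, from 7.44 and 6.89 to 0 and 0.249 TPM and from 86.2 and 57.8 to 6.54 and 12.2 TPM. Gm32872-201, antisense to Cabcoco1, fell from 20.4 and 22.9 to 3.87 and 0.947 TPM, and 1810058I24Rik-201 from 75.2 and 76.1 to 11.4 and 14.4 TPM (limma adjusted p = 0.000302). Mir142hg, the host RNA of a microRNA of blood cells, was at 1.87 and 2.04 TPM in the P10 controls and at 0.420 and 0 TPM at 1 month, and at 3.98 and 6.77 TPM in the P10 knockouts. Its P10 rise (0.87 ± 0.26, limma adjusted p = 0.0452) was lost without either control or the second knockout library. With a library left out it was 0.50 to 1.23. Erythroid and macrophage markers, given above, were also higher in the P10 knockouts. Within these the macrophage sum ran the other way, at 447 and 281 TPM. Neutrophil markers summed to 95.8 and 447 TPM there, against 224 and 161 TPM in the controls. The part of these cells was not tested.

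**Figure D4:**
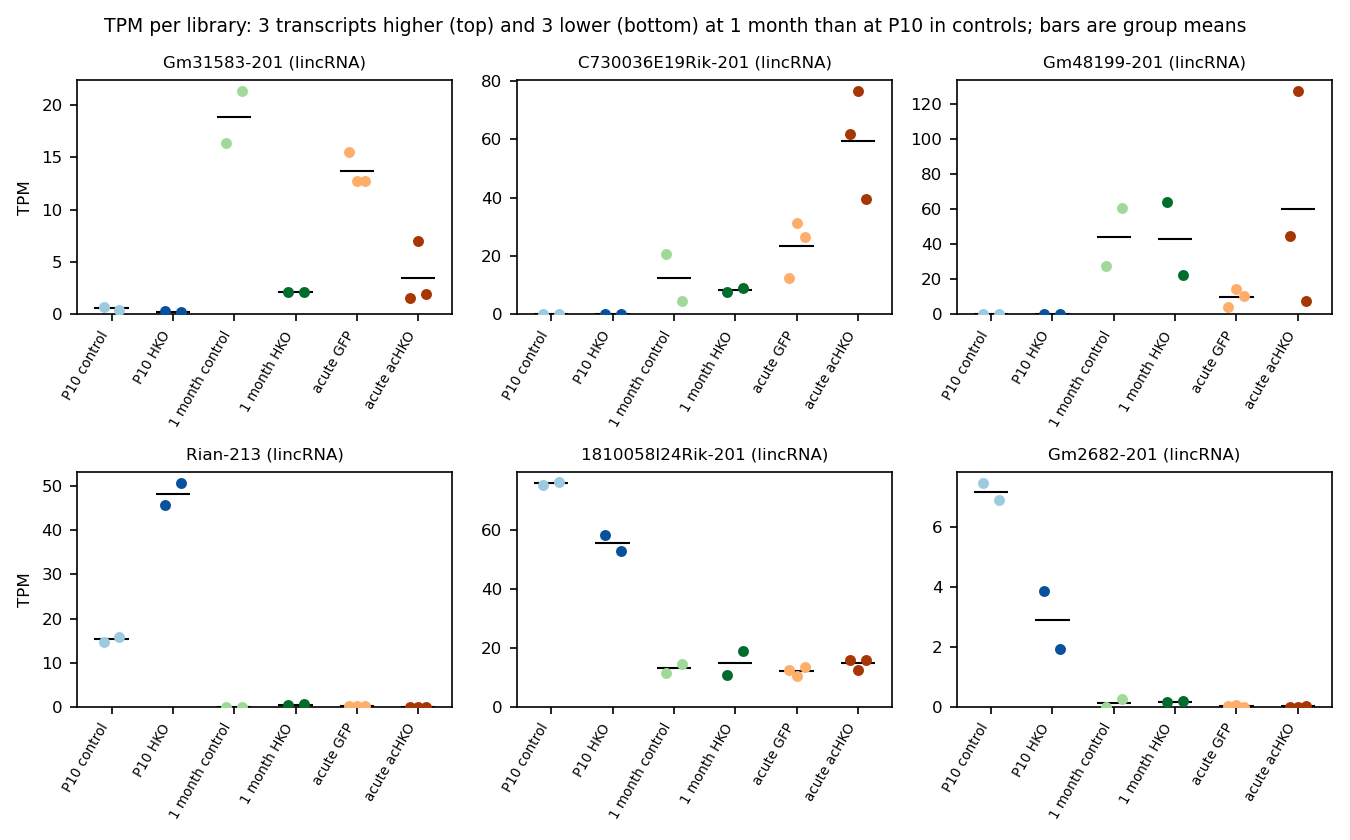
TPM of 6 long noncoding transcripts in each library (points) with group means (bars), 3 higher at 1 month than at P10 in controls in the top row and 3 lower in the bottom row. Rian-213 is at 14.8 to 50.7 TPM in the P10 libraries and below 1 TPM in all others, and Gm31583-201 is below 1 TPM in the P10 libraries and at 12.7 to 21.3 TPM in the 1 month and GFP controls.

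Long noncoding RNAs with a known role, from lists of nuclear body, X inactivation, imprinted, microRNA host, growth control and liver transcription factor RNAs, made up 26 transcripts of 12 genes. Of the 26, 6 passed at P10, all higher (23.1%, against 5.17% of all 18682 transcripts tested, where 4.25% were higher). These 6 were the 5 Rian transcripts and Mir142hg-201, so they stood for 2 genes. The 1 month comparison called 1, Prox1os-201, which was lower (3.85%, against 3.21% of all transcripts). The acute comparison called 5, 3 higher and 2 lower. That share of 19.2% lay below the 38.9% of all transcripts, where 8.49% were higher and 30.4% lower. The calls fell in 7 of the 12 genes, Malat1, Tug1, Rian, Dleu2, Mir142hg, Prox1os and Hnf4aos. Malat1-201, the full-length form of a nuclear speckle RNA, measured 9.41, 8.52 and 15.8 TPM in GFP and 13.4, 11.8 and 14.6 TPM in the acute knockouts (limma adjusted p = 0.4). Malat1-203, a spliced form of 485 bases from the 5′ end of the same gene, rose from 4.43, 3.46 and 4.66 to 14.3, 12.0 and 17.7 TPM (1.88 ± 0.19, adjusted p = 0.00138). The difference between the 2 forms was not tested. Neat1-202, of the RNA that scaffolds paraspeckles, was at 34.5 and 28.2 against 66.8 and 62.3 TPM at P10 (adjusted p = 0.0844) and overlapped at 9.28 to 26.5 and 16.6 to 61.5 TPM in the acute model (adjusted p = 0.256). Of 16 genes for paraspeckle proteins, none passed at P10 or 1 month, and 5 fell and none rose in the acute model. Over all 11219 genes tested, 11.5% passed at P10, 6.97% passed at 1 month and 34.2% passed in the acute model.

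Tug1, an antisense-class RNA that starts beside Morc2a, had 5 transcripts listed. Tug1-202 measured 0.188, 0 and 0.00048 TPM in GFP and 0.730, 1.98 and 1.76 TPM in the acute knockouts (1.48 ± 0.20, limma adjusted p = 0.0043), while the other 4 were not called there (adjusted p 0.103 to 0.573), and the sum over the gene did not pass (0.21, adjusted p = 0.721). Dleu2-208, host of a microRNA pair, fell in the acute model from 2.04, 1.74 and 3.36 TPM to 0.614, 0.636 and 0.679 TPM (-0.72 ± 0.19, adjusted p = 0.00667). Dancr-203 and Epb41l4aos-201, linked to growth control, were called in no comparison, with levels of 0.780 to 2.59 and 5.85 to 21.1 TPM over the 14 libraries. Of 23 tested genes for nuclear RNA decay and 3′ end processing, which clear many noncoding RNAs, 2 rose at P10, none passed at 1 month, and 2 fell in the acute model. Of 10 genes for X inactivation and chromatin partners, none passed at P10 or 1 month and 1 fell in the acute model.

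Antisense RNAs of liver transcription factors did not follow a single direction. Prox1os-201 overlaps Prox1, a homeobox regulator of hepatocyte identity, and measured 4.60, 3.43 and 5.12 TPM in GFP and 0.989, 1.30 and 0.848 TPM in the acute knockouts (-1.10 ± 0.19, limma adjusted p = 0.00208). Prox1 summed over its transcripts was at 11.7, 20.7 and 19.8 against 11.6, 6.11 and 6.73 TPM (-0.70 ± 0.28, limma adjusted p = 0.0242). Of the bases of Prox1os-201, 16.1% lie in exons of coding genes on the opposite strand. The 2 values are therefore separate only if the strand was used in quantification. At 1 month Prox1os-201 fell from 5.38 and 8.19 to 1.58 and 2.03 TPM (-1.42 ± 0.23, adjusted p = 0.0104, up to 0.0625 without the second control or the first knockout library), and Prox1 was not called (adjusted p = 0.738). Hnf4aos-201 overlaps Hnf4a, the nuclear receptor that maintains hepatocyte genes, and rose in the acute model from 0.831, 0.869 and 1.40 to 3.06, 2.31 and 2.32 TPM (1.11 ± 0.18, adjusted p = 0.0112, 0.0516 without the second GFP library). Hnf4a itself fell, from 120, 155 and 114 to 44.8, 50.9 and 30.2 TPM (-1.31 ± 0.22, adjusted p = 0.0019). Hnf4aos-203 was not called there (adjusted p = 0.0514), nor were the 2 Hnf1aos1 transcripts.

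Coding genes on the opposite strand were compared for all transcripts that had a tested partner, 94 antisense pairs with 70 genes and 27 lincRNAs starting within 5 kb of 22 genes. In the acute model 51 of the 94 antisense transcripts were called, and the partner was called too in 24, in the same direction in 16 and the opposite in 8. Of all 11219 genes tested 34.2% passed in that comparison, and 30.4% of all transcripts were lower against 8.49% higher, so nothing particular to the pairs is read from these counts. Where the antisense transcript shared no base with the partner's exons (42 pairs), both were called in 10, with 5 in each direction. At P10 both were called in 3 of 12 called antisense transcripts, at 1 month in 0 of 6, and between control ages in 18 of 36, with 15 in the same direction, where 41.6% of all genes passed.

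Treh, the divergent partner of BC049987-201, measured 0.566, 0.629 and 0.725 TPM in GFP and 12.9, 10.3 and 10.5 TPM in the acute knockouts (3.20 ± 0.17, limma adjusted p = 0.0001), and at 1 month 0.935 and 0.925 against 3.46 and 5.32 TPM (1.47 ± 0.26, adjusted p = 0.005). At P10 Treh also rose, from 0.168 and 0.116 to 1.56 and 3.51 TPM (1.33 ± 0.26, adjusted p = 0.0028), where BC049987-201 was not called. Il1rap fell with Gm20319-201 in the acute model, from 57.8, 68.6 and 85.1 to 17.1, 26.0 and 16.1 TPM (-1.48 ± 0.22, adjusted p = 0.0014). Of the bases of Gm20319-201, 45.8% lie in Il1rap exons, so the values are separate only if the strand was used. Gm20319-202, also antisense to Il1rap, was not called there. Fkbp5 fell at P10 with AC154912.1-201 (-1.35 ± 0.24, adjusted p = 0.0129), with no exonic base shared. Parp4 and Ppp4r3a were not called in any knockout comparison in which their antisense transcripts fell.

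**Figure D5:**
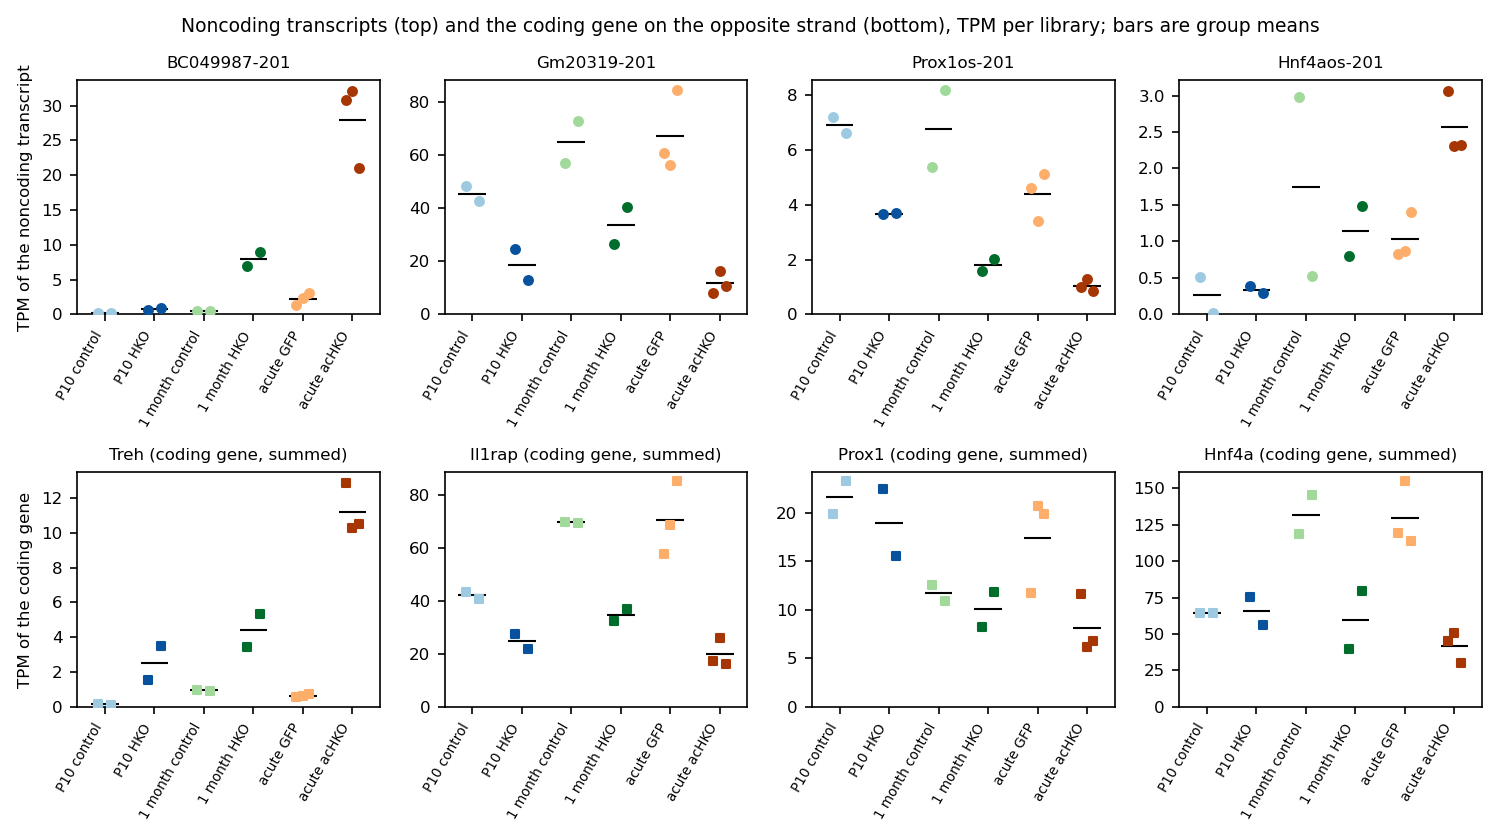
TPM in each library (points, with group means as bars) of 4 noncoding transcripts (top) and of the coding gene on the opposite strand, summed over its transcripts (bottom). BC049987-201 and Treh are both highest in acHKO (21.0 to 32.1 and 10.3 to 12.9 TPM), and Hnf4aos-201 and Hnf4a differ in opposite directions there.

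Of the 49 genes with 2 or more listed transcripts, 15 had no called transcript in the acute model, 11 had only higher ones, 21 only lower ones, and 2 (0610031O16Rik and Gm27216) had both. No gene had calls in both directions at P10, at 1 month or between control ages. The 59 transcripts higher in the acute knockouts had a median length of 583 bases, against 768.5 for the 101 lower and 743 for the 210 not called. The purine-rich sequence GGAGA, a motif known for SRSF1 binding, occurred at a median of 1.63, 1.59 and 1.45 per kb in these 3 sets, and at 1.57 in all 370 against 2.00 in coding transcripts.

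The effects of the 2 models differed for some transcripts by the test of the difference itself. Between 1 month and P10, 5 of the 370 passed (1.35%, against 0.733% of all). The signed difference, 1 month minus P10, was positive in 2 and negative in 3, directions taken by 0.225% and 0.509% of all. A negative difference can stand for a deeper fall, as in Gm31583-201. Between the acute model and 1 month, 30 passed (8.11%, against 7.03% of all). The signed difference, acute minus 1 month, was positive in 11 and negative in 19, directions taken by 2.01% and 5.02% of all. With median-ratio rescaling the splits were 13 and 4, and 40 and 25, and without mitochondrially encoded transcripts the first was 8 and 2. The count of 5 was 2 or 1 without the first or second P10 control, 12 or 3 without the first or second P10 knockout library and 9 without the second 1 month control. The count of 30 was 15 without the first 1 month control, 51 or 13 without the first or second 1 month knockout library and 16 without the first acute knockout library. Without the 7 lincRNAs that follow the floxed line, 26 of the 30 were left. The 5 included Gm48275-201, which rose at P10 and fell at 1 month, and BC049987-201 and Gm31583-201, which were called at 1 month and not at P10.

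The authors' deposited tables give gene-level results for the same libraries. In the authors' deposited table for P10, 50 of the genes had an adjusted p under 0.05 and were higher, and 93 were lower, of 279 with an adjusted p, where 25.3% of all genes with an adjusted p were called. In the authors' deposited table for 1 month the counts were 33 and 24 of 286, against 13.5% of all genes. In the authors' deposited table for the acute model they were 81 and 64 of 286, against 32.5% of all genes. Of the genes called by limma on gene sums, 68 of 73 at P10, 41 of 46 at 1 month and 109 of 125 in the acute model were also called in the authors' deposited tables in the same direction, and none in the opposite direction. The balance of directions still differed. Limma on gene sums called 47 higher and 26 lower at P10, and 48 higher and 77 lower in the acute model, the reverse of the deposited balance. At 1 month it called 30 higher and 16 lower, the same balance. The cause was not tested.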

How the data were processed

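Reads were not used. The authors deposited a table of TPM (length-corrected transcript abundance) for 14 libraries, made with bcl2fastq 2.17.1.14 and kallisto 0.46.0 on GRCm38 (mm10), per the submitters' processing notes. The sources used here give neither the annotation release nor the strand setting. The authors also deposited 3 gene tables which, per the file headers, hold a mean normalized count (a signal, not a raw count), a log2 fold change, a test score, and p-values with adjusted p-values. Per the submitters' processing notes DESeq2 was used. TPM sum to 1000000 per library and hold no depth, so no count test was run, and libraries rich in mitochondrial RNA lower all other values.

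Tests were limma 3.58.1 in R 4.3.3 (lmFit, eBayes with trend, two-sided) on log2(TPM + 1) over all 18682 transcripts whose mean over the 14 libraries reached 1 TPM, with Benjamini-Hochberg adjustment over all of them and a threshold of 0.05. The HKO fit used 8 libraries and the acute fit 6, with 4 residual degrees of freedom each, and the difference between acute and 1 month effects used all 14 with 8. Fold changes understate low transcripts and are relative to the median of all transcripts, but the tests and their adjusted p-values used the deposited TPM unshifted. Coding genes were tested as TPM sums. The fit was tested on simulated data. Positions and shared 31-base words came from GENCODE M21 (GRCm38), which held 366 of the 370 transcripts, and promoters from RefSeq (GRCm38.p6); 1 further promoter that met the rule for printing is not reported here.

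The transcripts, lists and tests were chosen with earlier results of these data known. Named are the 10 highest means, the 6 largest rises and falls per comparison (3 for differences of effects) among called transcripts, those of groups without overlap only, the listed known RNAs, and their coding partners; where others are named, they were chosen after their values were seen, among them those called in all 3 comparisons. Alternatives were another pseudocount, filters, 2 rescalings, no trend, a replicate block, all libraries in 1 fit, gene sums, and each library left out; a lone library left in a group is then assumed to vary like the other groups.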

Additional observations from a re-analysis of the deposited data

Results flagged for a closer look

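For 18 results on named transcripts the difference between effects of the same contrast passed the limma test at 2 ages or in 2 models; the values are differences of log2 fold changes relative to the median. From P10 to 1 month the effect of the knockout differed by 2.37 for BC049987-201 and by 1.73 for Tbx3os1-205. It differed by -3.98 for Gm48275-201, by -2.08 for Gm31583-201 and by -1.76 for Gm35696-201. Only that of Gm48275-201 passed in all 8 fits with a library left out (adjusted p up to 0.035), and the highest adjusted p was 0.056 for BC049987-201, 0.0678 for Gm31583-201, 0.174 for Tbx3os1-205 and 0.186 for Gm35696-201. Tbx3os1-205 measured 0.925 and 0.930 TPM in the P10 controls, 0.482 and 0.503 TPM in the P10 knockouts, 0.843 and 1.03 TPM in the 1 month controls and 3.05 and 3.39 TPM in the 1 month knockouts. Gm35696-201 was higher in the P10 knockouts (3.14 and 5.44 against 1.29 and 1.83 TPM) and lower at 1 month (0.819 and 0.673 against 2.16 and 2.76 TPM).

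From 1 month to the acute model the effect differed by 2.68 for Gm26917-202, by 2.38 for Gm43263-201, by 1.86 for 4930404H11Rik-201 and by 1.65 for 0610031O16Rik-204. It differed by -4.23 for Gm48099-201, -3.65 for A330049N07Rik-203, -3.54 for AA465934-203 and -2.39 for AC153140.1-201, the lincRNAs present in every library with floxed alleles, for which the 2 models have different controls. These 4 passed in all 10 fits with a library left out. It differed by -2.71 for Gm15611-201, -1.70 for Gm48633-201, -1.38 for Gm36738-201, -1.21 for 0610005C13Rik-211 and -1.0 for B630019A10Rik-204. Outside the 4, each call was lost in at least 1 of the 10 fits, with adjusted p up to 0.181. 4930404H11Rik-201 measured 0.480, 0.629 and 0.863 TPM in GFP and 5.17, 5.88 and 4.64 TPM in the acute knockouts, and 3.18 and 1.16 against 3.70 and 2.05 TPM at 1 month.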

How the results depend on the processing

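Depth is unknown from TPM, and groups of 2 or 3 libraries limit precision. Of 121 calls on named transcripts, 110 stayed past the limma threshold with median-ratio rescaling, 113 without mitochondrially encoded transcripts, 111 with a pseudocount of 0.1 TPM and 80 with no filter on the level. The direction was reversed in 1 case, Tug1-202 in the acute model as a gene sum, where the log2 change was 0.21 relative to the median of all genes and had the opposite sign on the deposited TPM; the cause was not tested.

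With a library left out, the number of called transcripts was 16 to 44 at P10, 29 to 33 at 1 month, 113 to 151 in the acute model, 76 to 117 between control ages, 1 to 12 for the difference of 1 month and P10 effects, and 13 to 51 for that of acute and 1 month effects. At 1 month the count was 15 with no filter, 65 with median-ratio rescaling and 64 without mitochondrial transcripts. For the difference of 1 month and P10 effects it was 3 with a pseudocount of 0.1 TPM, 17 with rescaling, 10 without mitochondrial transcripts, 13 with all 14 libraries in a single fit and 16 as gene sums. For that of acute and 1 month effects it was 7 with no filter, 65 with rescaling and 47 without mitochondrial transcripts. The cause of these shifts was not tested.

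Whether replicate numbers pair the samples could not be decided. Deviations of same-numbered libraries correlated at 0.0212 at P10, 0.404 at 1 month, and 0.0023, 0.205 and 0.162 in the acute model. Differently numbered acute libraries correlated at -0.209 to 0.0494. In groups of 2 libraries the values of differently numbered libraries are fixed as the same with the sign turned. The main fits used no pairing. With the replicate block the counts were 99 at P10, 45 at 1 month, 187 in the acute model, 144 between control ages, and 12 and 47 for the differences of effects.

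Over all lincRNA and antisense transcripts the mean summed level was 2982 and 3489 TPM in P10 controls and knockouts, 3112 and 2698 at 1 month, and 2632 and 2615 in GFP and acHKO. Without mitochondrial transcripts that of the 370 was 3363 and 3990, 3772 and 3910, and 2579 and 3453 TPM.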
